A study of Homo sapiens with 8 samples.

Results

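The Notch receptors NOTCH1, NOTCH2 and NOTCH3, their ligands JAG1, JAG2 and DLL4, the Fringe enzymes LFNG, MFNG and RFNG and the target gene HES1 were examined in DLD1 cells. Every probe that was not a control and carried the name of a member was taken, which gave 13 probes for the 10 genes, of 50599 probes for 36337 gene names on the array. DLD1 is an established human colorectal cancer cell line. Its RNA was measured on 8 single-colour Agilent arrays, in 4 groups of 2. The cells had been transfected with a control siRNA (siCONT) or with siRNA against UHRF1, the protein that recruits the maintenance DNA methyltransferase to replicated DNA, and 48 h later they received ethanol (mock) or 300 nM of the histone deacetylase inhibitor trichostatin A (TSA) for 24 h. Control and depleted cells were thus each measured with mock and with TSA. All cells had a transfected siRNA, and those without TSA had received its solvent. The 2 arrays of a depletion group carried different siRNAs (siUHRF1-1 and siUHRF1-2), each on 1 array per agent.

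Notch receptors are membrane proteins that are cut when a Jagged or Delta ligand on a neighbouring cell binds them. The freed intracellular domain enters the nucleus, joins the DNA-binding protein RBPJ and switches on targets such as HES1, a transcriptional repressor. Fringe enzymes are Golgi glycosyltransferases that lengthen the O-fucose sugars on the receptors and so alter which ligands activate them. In the intestine, Notch signalling keeps crypt progenitors dividing, favours absorptive over secretory cells and represses the secretory regulator ATOH1 through HES1.

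Each level below is the log2 of a probe's intensity minus the log2 of the array's 75th percentile, so a level of 0 means that 75% of the probes on that array were dimmer. Levels were compared between samples for 1 probe at a time and not between probes. Within a siCONT group, the difference between arrays was 1.08 to 1.16 times the noise of repeated spots, against 10.3 to 12.5 times between the different siRNAs, so each siCONT pair was counted as 1 sample in means. A probe was called changed at an adjusted p under 0.05 and at least 2-fold in limma, fitted over all probes with all 8 arrays. For called changes of members and other pathway genes, the adjusted p of a second fit stands beside the first. This second fit took the mean of each siCONT pair as 1 sample. For changes that were not called only the first p is given, and it counts the siCONT arrays as separate samples although they differ by little more than spot noise. LFNG was chosen by its fall under TSA in UHRF1-depleted cells and by the gap between its probes, both seen earlier on these same arrays, so its values are given as a description with no test. The other members were listed by their place in the pathway when results were already known, so their calls are not independent evidence.

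UHRF1, the targeted gene, had a level of 1.98 and 2.01 in siCONT with mock, 0.34 (siUHRF1-1) and −0.02 (siUHRF1-2) after depletion with mock, 1.04 and 1.01 in siCONT with TSA, and −1.55 and −2.14 after depletion with TSA (probe A_23_P208880). Depletion thus left 28.1% of the siCONT level under mock and 13.6% under TSA. The second UHRF1 probe, A_33_P3379454, gave 30.7% and 19.7%, and it was above background on no array of depleted cells with TSA. All 8 colon epithelium markers (EPCAM, CDH1, KRT8, KRT18, KRT20, VIL1, CDX1, CDX2) were well above background on every array. Of the other marker lists, 0 of 6 fibroblast, 1 of 6 endothelial (ESAM) and 1 of 6 leukocyte genes (CD14) were above background on all arrays, and PECAM1, KDR, TEK, PTPRC, CD3E, MS4A1, COL1A2 and COL3A1 on none. Summed intensities, as a multiple of the 75th percentile, were nevertheless higher after depletion with TSA than in siCONT with mock. They were 3.23 to 3.36 against 0.385 to 0.429 for the endothelial list, 2.41 to 2.84 against 0.564 to 0.622 for the leukocyte list and 0.666 to 1.34 against 0.218 to 0.23 for the fibroblast list, with 722 to 1080 for the epithelial list over all groups. With depletion plus TSA, CSF1R was at least 15.0-fold and COL1A1 at least 6.66-fold higher (limma adjusted p = 0.00139 and 0.00108). Both were above background on no siCONT mock array and were tested only through the depleted group, so their direction was set in advance. CD14, above background on all arrays, changed by 1.28 and was not called (limma adjusted p = 0.0616), and PDGFRB was not tested in this comparison. The part of these markers in the results was not tested. TSA arrays filled 1 row of the slide and mock arrays the other, so TSA and slide row cannot be told apart. Within each row the siCONT arrays took columns 1 and 2 and the depleted arrays columns 3 and 4, and depletion and slide column cannot be told apart. In RNA of a whole culture, fewer expressing cells and less RNA per cell cannot be told apart either.

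The probes decide which transcripts a value stands for, so those on which the results turn are shown 5′ to 3′, with positions on hg19 as the files give them. The 2 LFNG probes lie on the plus strand of chromosome 7 and start 769 bases apart. The files assign A_23_P8452 (chr7:2567971-2568030) to transcript variant 1 and A_23_P434518 (chr7:2568740-2568799) to variant 2. Their first 30 bases are:
LFNG A_23_P8452: aagcgaatgataagggaaaagttctcaggg
LFNG A_23_P434518: cccagcccctgcagagatccagacgcttgt
The HES1 probe A_23_P6596 (chr3:193854276-193854463, plus strand) is 60 bases long but covers a longer stretch of genome, so it joins exons. NOTCH1 A_33_P3370424 (chr9:139390523-139390582, minus strand) ends with the stop codon, shown in capitals:
HES1 A_23_P6596: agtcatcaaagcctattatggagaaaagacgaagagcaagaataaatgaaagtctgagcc
NOTCH1 A_33_P3370424: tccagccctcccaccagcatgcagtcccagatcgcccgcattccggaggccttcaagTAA
The other single probes were NOTCH3 A_33_P3313055 (chr19:15270489-15270548, minus), JAG1 A_23_P210763 (chr20:10619061-10619120, minus), JAG2 A_23_P106024 (chr14:105608674-105608733, minus), DLL4 A_23_P419641 (chr15:41229655-41229714, plus), MFNG A_23_P103104 (chr22:37865325-37865384, minus) and RFNG A_23_P84629 (chr17:80006638-80006920, minus).

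The promoter of HES1 was read because HES1 was taken as the target gene among the members. Receptor activity itself was not measured. The 250 bases before its start in RefSeq (GRCh38.p14, chr3:194135898-194136147, plus strand) hold the RBPJ-type motif GTGGGAA, shown in capitals:
HES1 promoter: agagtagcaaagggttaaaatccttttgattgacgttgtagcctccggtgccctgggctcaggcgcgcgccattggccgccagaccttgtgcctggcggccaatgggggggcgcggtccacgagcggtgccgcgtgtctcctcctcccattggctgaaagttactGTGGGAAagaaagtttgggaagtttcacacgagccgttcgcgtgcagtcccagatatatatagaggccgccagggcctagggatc
The motif starts at position −85 from the start site. Both strands were searched (GTGGGAA or TTCCCAC), and 5.43% of all 35116 promoters of the same length held a match. HES1 was the 1 gene with a match among the 9 members that had a promoter in the table, which gave 10 windows, 2 of them for LFNG. MFNG had no entry. Among the genes of the HES and HEY family and other targets listed below, 5 of 9 with a promoter held a match (HES4, HES5, HEY2, HEYL and OLFM4).

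With TSA, falls of NOTCH3, JAG2 and HES1 were called in siCONT cells, and a fall of JAG2 and a rise of JAG1 in depleted cells. The tested probes of NOTCH1 and NOTCH2 moved by less than 2-fold with TSA. A call in siCONT or in depleted cells only is not a difference between them, since the interaction passed for none of the tested member probes other than LFNG. UHRF1 depletion under mock passed the call for none of the 9 tested member probes other than LFNG, when 4.12% of all 22396 tested probes passed. At an unadjusted limma p under 0.05 and with no fold minimum 6 of the 9 passed, against 30.7% of all tested probes, and 0 passed the methods' unadjusted t-test with the fold minimum. TSA in siCONT passed it for 3 of 9 (NOTCH3, JAG2 and HES1, all lower), against 18.6% of all tested probes. TSA in UHRF1-depleted cells passed it for 2 of 9 (JAG1 higher, JAG2 lower), against 20.7%. Depletion plus TSA against siCONT with mock passed it for 4 of 9 (JAG1 and MFNG higher, JAG2 and HES1 lower), against 25.6%. Depletion under TSA passed it for 1 of 9 (NOTCH3, higher), against 8.27%, and the interaction, which is the depletion effect under TSA minus that under mock, for 0 of 9, against 4.89% (at an unadjusted limma p under 0.05, 2 of 9 against 28.6%). Nothing particular to the members is read from these shares. With siCONT counted as 1 sample, the calls numbered 0, 0, 2, 1, 0 and 0 in the same order, when 0.0223%, 1.56%, 17.6%, 15.4%, 0.692% and 0% of all probes passed. The median change of the 9 probes lay between −0.36 (TSA in siCONT) and 0.43 (interaction), and that of all tested probes between −0.14 and 0.06.

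**Figure D1:**
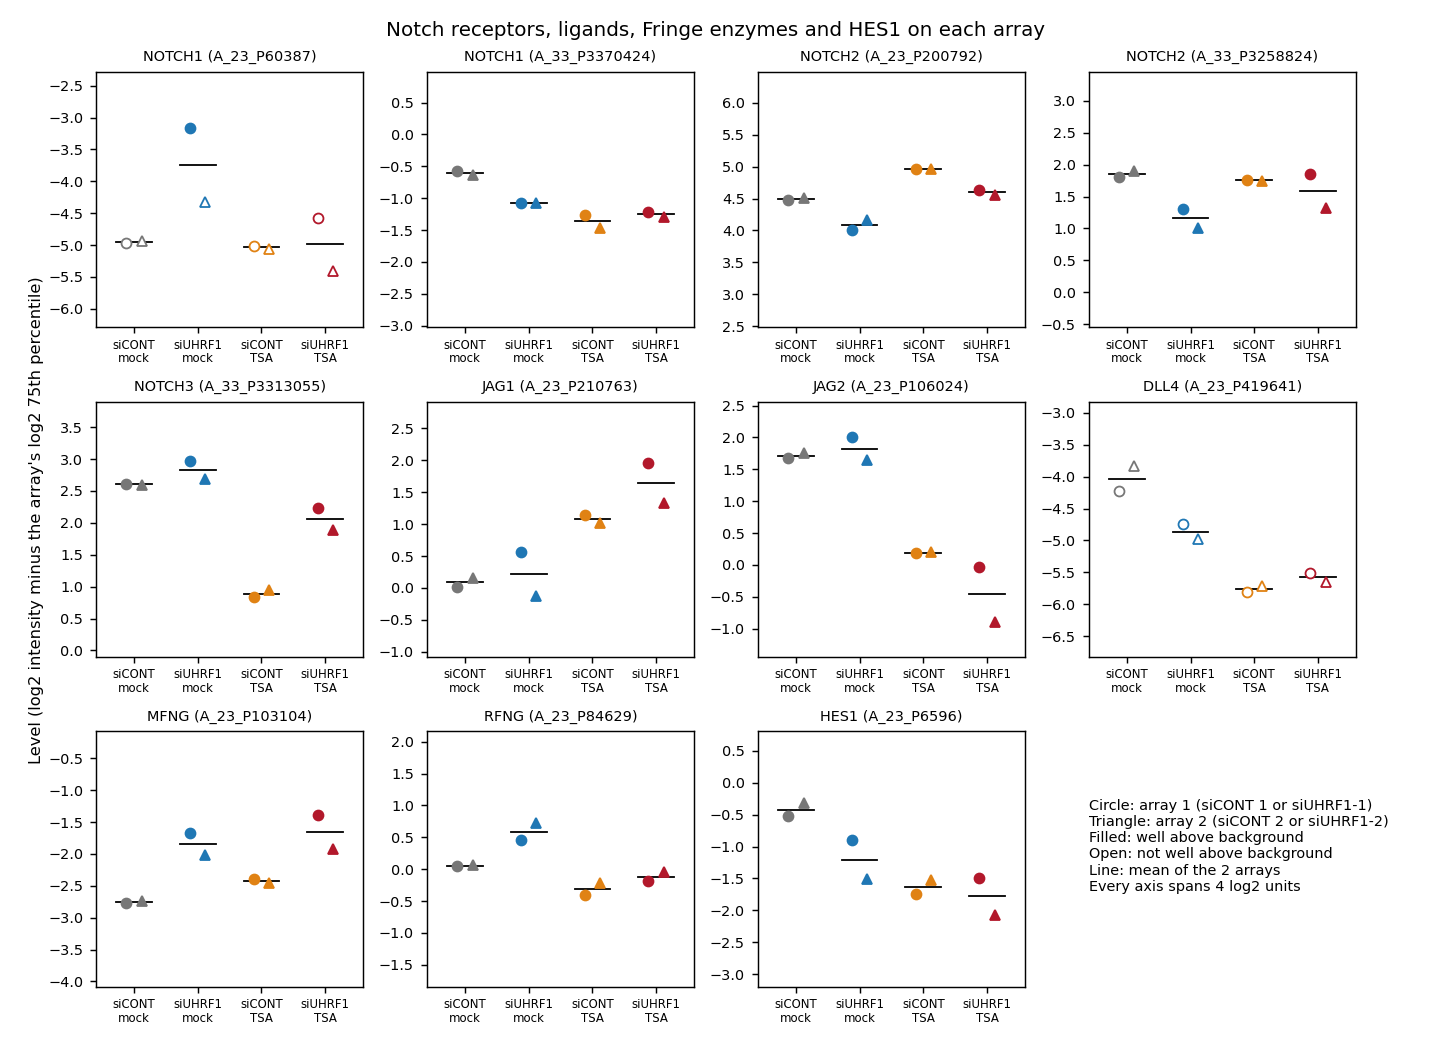
Level of each member probe other than LFNG (log2 intensity minus the array's log2 75th percentile) on the 8 arrays by group. Points are arrays, open where the probe was not well above background, and lines are means of 2 arrays; every axis spans 4 log2 units. NOTCH3 drops from 2.60 to 2.61 in siCONT with mock to 0.83 to 0.95 in siCONT with TSA, JAG2 lies at 0.20 or lower on all 4 TSA arrays and JAG1 at 1.02 or higher on them, and DLL4 is open on every array.

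NOTCH3 was the receptor that changed most. Its level was 2.61 and 2.60 in siCONT with mock and 2.97 and 2.68 in depleted cells with mock (siUHRF1-1 first, as in all that follows). It was 0.83 and 0.95 in siCONT with TSA, and 2.24 and 1.89 in depleted cells with TSA. The siCONT arrays with TSA were thus the lowest, the depleted arrays with TSA lay between, and the mock arrays were the highest, with no overlap between these sets. The siCONT and depleted arrays under mock did not differ beyond their spread (0.22, SE 0.17, limma adjusted p = 0.418). TSA lowered NOTCH3 to 30.4% of its mock level in siCONT (change −1.72, SE 0.17, 95% interval −2.13 to −1.31, adjusted p = 0.00123, or 0.0885 with siCONT as 1 sample). In depleted cells TSA left 59.0% (change −0.76, SE 0.17, adjusted p = 0.0151), which is under 2-fold but reached −1.15 with median scaling (adjusted p = 0.00743). Under TSA, NOTCH3 was 2.26-fold higher in depleted than in siCONT cells (change 1.17, SE 0.17, adjusted p = 0.0104, or 0.212 with siCONT as 1 sample), and the excess was 1.35 for siUHRF1-1 and 1.00 for siUHRF1-2. The interaction was 0.96 (SE 0.24, adjusted p = 0.0687) and did not pass. The higher level under TSA was no longer called with the arrays scaled on their median (0.82) or without siCONT TSA array 1 (adjusted p = 0.0825), siCONT TSA array 2 (0.0679) or the siUHRF1-1 TSA array (1.00, just under the fold minimum).

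NOTCH1 and NOTCH2 each had 2 probes, which did not behave alike. The NOTCH1 probe at the end of the coding sequence read −0.58 and −0.63 in siCONT with mock, −1.08 and −1.07 in depleted cells with mock, −1.27 and −1.46 in siCONT with TSA, and −1.21 and −1.29 in depleted cells with TSA. The siCONT mock arrays were the highest, and the arrays of the other 3 groups lay between −1.46 and −1.07. Against siCONT with mock the change was −0.77 with TSA (SE 0.12, adjusted p = 0.00488) and −0.65 with depletion plus TSA (SE 0.12, adjusted p = 0.00627), both under 2-fold, and −0.47 with depletion (SE 0.12, adjusted p = 0.0617). Median scaling brought depletion plus TSA to −1.05 (adjusted p = 0.0018), past the call. The second NOTCH1 probe, A_23_P60387 (chr9:139389764-139389823, minus), was above background on 1 array only, that of siUHRF1-1 with mock, where it read −3.17. It lay between −5.40 and −4.32 on the other arrays and was not tested.

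The NOTCH2 probe A_23_P200792 (chr1:120454858-120454917, minus) read 4.47 and 4.51 in siCONT with mock, 4.0 and 4.17 in depleted cells with mock, 4.96 and 4.97 in siCONT with TSA, and 4.64 and 4.56 in depleted cells with TSA. Both TSA groups lay above their mock groups, and both depleted groups below their siCONT groups. TSA changed it by 0.48 in siCONT (SE 0.12, adjusted p = 0.0208) and by 0.51 in depleted cells (SE 0.12, adjusted p = 0.016), or 1.40 and 1.43-fold, and depletion by −0.40 under mock and −0.37 under TSA (SE 0.12 each, adjusted p = 0.0837 and 0.0787). The other NOTCH2 probe, A_33_P3258824 (chr1:120539807-120539866, minus), lies 84949 bases away in a stretch that the NOTCH2NL copies share almost letter for letter, so its source is uncertain. It read 1.80 and 1.90, 1.31 and 1.01, 1.76 and 1.75, and 1.85 and 1.32 in the same order of groups, and its changes with TSA were −0.09 in siCONT and 0.42 in depleted cells (SE 0.20 each, adjusted p = 0.743 and 0.149). The lowest arrays on this probe were those of depleted cells with mock (change −0.69, SE 0.20, adjusted p = 0.086).

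Among the ligands, the Jagged genes moved in opposite directions with TSA. JAG1 read 0.01 and 0.16 in siCONT with mock, 0.56 and −0.12 in depleted cells with mock, 1.15 and 1.02 in siCONT with TSA, and 1.96 and 1.33 in depleted cells with TSA. All 4 TSA arrays lay above all 4 mock arrays, and the mock groups overlapped. TSA raised JAG1 2.69-fold in depleted cells (change 1.43, SE 0.29, adjusted p = 0.0105, or 0.0473 with siCONT as 1 sample). Depletion plus TSA raised it 2.95-fold over siCONT with mock (change 1.56, SE 0.29, adjusted p = 0.00636, or 0.0704 with siCONT as 1 sample). In siCONT the change with TSA was 1.00 (1.99-fold, SE 0.29, adjusted p = 0.0366), just under the fold minimum, and it reached 1.13 when arrays were scaled on the probes above background on all arrays. The interaction was 0.43 (95% interval −0.56 to 1.43, adjusted p = 0.51), so the data do not set the TSA effects in siCONT and in depleted cells apart.

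JAG2 read 1.68 and 1.75 in siCONT with mock, 2.01 and 1.64 in depleted cells with mock, 0.18 and 0.20 in siCONT with TSA, and −0.03 and −0.89 in depleted cells with TSA. The mock groups overlapped, the TSA arrays were all lower, and the 2 siRNAs differed by more under TSA than the siCONT arrays did. TSA lowered JAG2 to 34.7% in siCONT (change −1.53, SE 0.29, adjusted p = 0.0092, or 0.189 with siCONT as 1 sample) and to 20.6% in depleted cells (change −2.28, SE 0.29, adjusted p = 0.00205, or 0.015). Depletion plus TSA left 22.2% of the siCONT mock level (change −2.17, SE 0.29, adjusted p = 0.00185, or 0.0328). Depletion under TSA gave −0.65 (SE 0.29, adjusted p = 0.169), which was −0.22 for siUHRF1-1 and −1.08 for siUHRF1-2, and passed the call when the siUHRF1-1 array was left out. The fall in siCONT was no longer called without siCONT mock array 2 (adjusted p = 0.0542), siCONT TSA array 1 (0.0556) or siCONT TSA array 2 (0.0553).

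DLL4, a Delta ligand best known from endothelium, was well above background on no array. Its measured level lay between −5.81 and −3.84, and no change of it was tested. Of the endothelial list, PECAM1, KDR and TEK were above background on no array, VWF and CDH5 on 6 and ESAM on 8. With depletion plus TSA, VWF was at least 15.0-fold higher (limma adjusted p = 0.000125) and ESAM rose by 2.99 (limma adjusted p = 6.35e-05). CDH5 changed by 0.67 (limma adjusted p = 0.0189), which is under 2-fold. VWF and CDH5 were above background on no siCONT mock array and were tested only through the depleted group, so their direction was set in advance.

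**Figure D2:**
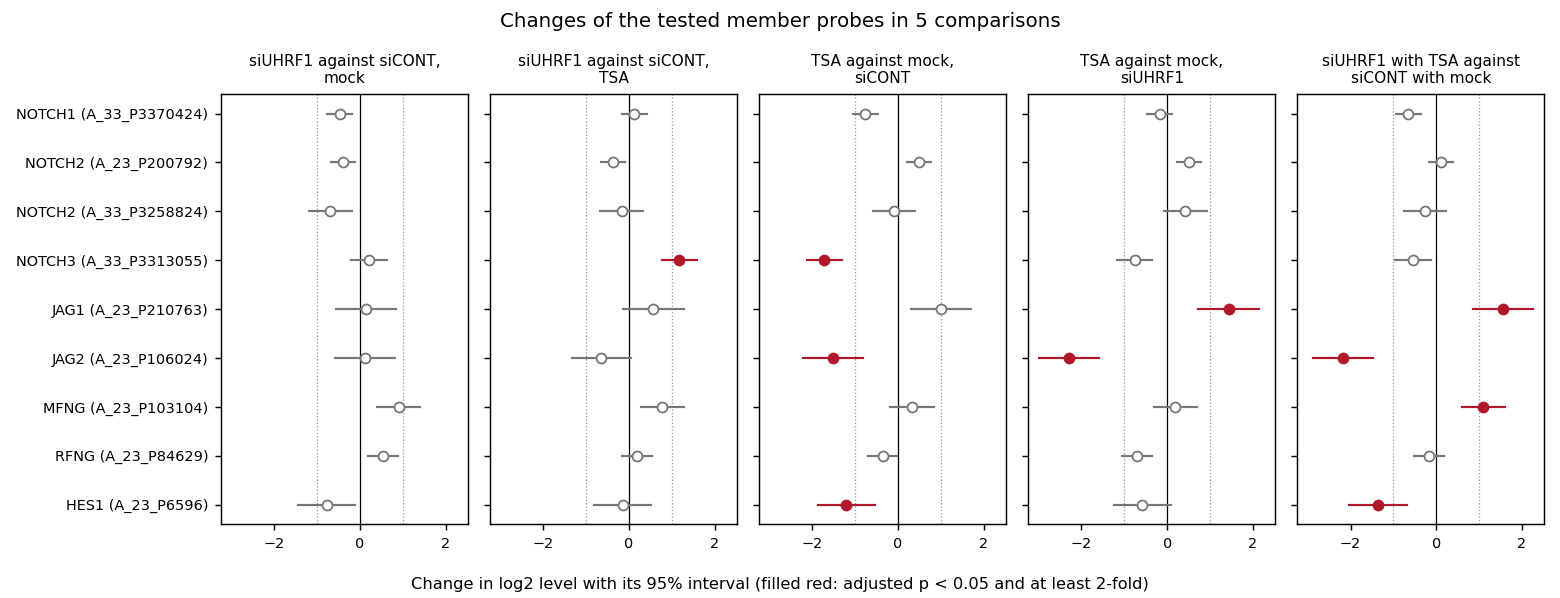
Change in log2 level (points) with its 95% interval (bars) for the 9 tested member probes other than LFNG, in 5 comparisons; dotted lines mark 2-fold, and filled red points passed adjusted p under 0.05 and 2-fold in limma. JAG2 is filled in all 3 comparisons that contrast TSA with mock, JAG1 and MFNG are filled to the right with depletion plus TSA, and nothing is filled for depletion under mock.

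LFNG had 2 probes that moved together in direction for the most part but not in size. Its probe A_23_P8452 read 1.19 and 1.27 in siCONT with mock, 2.84 and 3.07 in depleted cells with mock, −3.94 and −3.23 in siCONT with TSA, and −2.63 and −1.73 in depleted cells with TSA. In processed intensity units this is 313 and 345, 1360 and 1260, 10.9 and 18.0, and 24.2 and 49.1. The groups did not overlap and ran from depleted cells with mock, through siCONT with mock and depleted cells with TSA, to siCONT with TSA, where 1 of the 2 arrays was not well above background. The difference with TSA was −4.82 in siCONT and −5.14 in depleted cells, and it was −3.41 between depleted cells with TSA and siCONT with mock, which left 9.39% of the level. Depleted cells read 1.73 higher than siCONT under mock (1.61 for siUHRF1-1 and 1.84 for siUHRF1-2) and 1.40 higher under TSA (0.96 and 1.85).

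The probe A_23_P434518, assigned to variant 2, read −1.61 and −1.69 in siCONT with mock, −1.02 and −1.23 in depleted cells with mock, −2.10 and −2.31 in siCONT with TSA, and −2.04 and −2.72 in depleted cells with TSA, and it was above background on all 8 arrays. Here the TSA groups overlapped. The difference with TSA was −0.56 in siCONT and −1.26 in depleted cells, and depletion gave 0.53 under mock and −0.17 under TSA. Both probes were thus highest in depleted cells with mock and lower on every TSA array than on any mock array. The 2 probes have separate positions and the files give them separate transcripts, and whether probe response or transcript makes the gap was not tested.

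**Figure D3:**
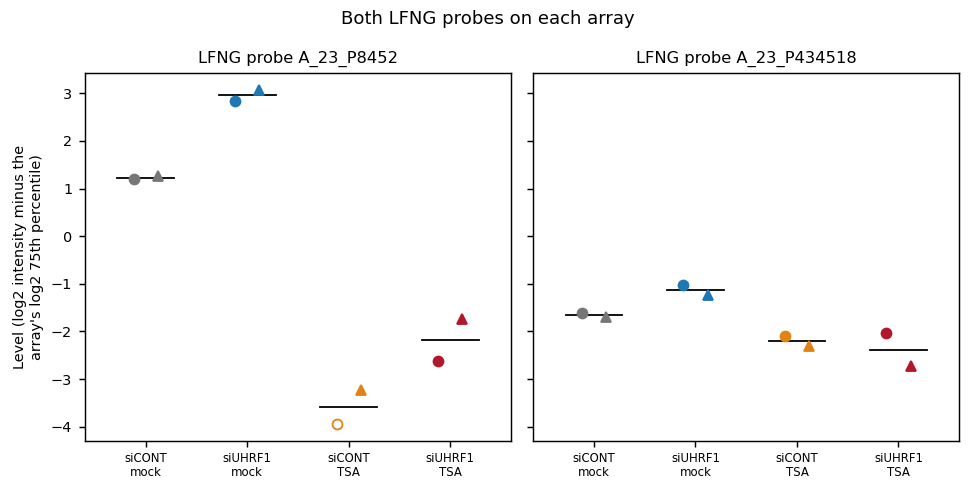
Level of both LFNG probes (log2 intensity minus the array's log2 75th percentile) on the 8 arrays by group, on 1 vertical scale; points are arrays, open where not well above background, and lines are means of 2 arrays. A_23_P8452 runs from 3.07 down to −3.94, while A_23_P434518 stays between −1.02 and −2.72.

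The other Fringe genes moved less. MFNG read −2.77 and −2.74 in siCONT with mock, −1.68 and −2.02 in depleted cells with mock, −2.39 and −2.46 in siCONT with TSA, and −1.39 and −1.92 in depleted cells with TSA. All 4 depleted arrays lay above all 4 siCONT arrays, and the depleted groups overlapped with each other. The change was 1.10 with depletion plus TSA (2.14-fold, SE 0.21, adjusted p = 0.00694, or 0.0952 with siCONT as 1 sample), 0.91 with depletion under mock (1.87-fold, SE 0.21, adjusted p = 0.0507) and 0.78 with depletion under TSA (1.71-fold, SE 0.21, adjusted p = 0.0516). The TSA changes were 0.32 in siCONT and 0.19 in depleted cells (SE 0.21, adjusted p = 0.252 and 0.495). Its 1 call fell under 2-fold with quantile normalization (0.80), median scaling (0.70), normexp background correction (0.31) and without the siUHRF1-1 TSA array (0.83).

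RFNG read 0.05 and 0.06 in siCONT with mock, 0.46 and 0.72 in depleted cells with mock, −0.40 and −0.22 in siCONT with TSA, and −0.19 and −0.05 in depleted cells with TSA. The depleted arrays with mock were the highest, and under either agent the depleted arrays lay above the siCONT arrays. The change with TSA in depleted cells was −0.71 (SE 0.14, adjusted p = 0.0106), which is 1.64-fold and was not called, and it reached −1.10 with median scaling. Depletion gave 0.54 under mock (SE 0.14, adjusted p = 0.0706) and 0.19 under TSA (SE 0.14, adjusted p = 0.394).

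HES1 read −0.52 and −0.32 in siCONT with mock, −0.90 and −1.51 in depleted cells with mock, −1.74 and −1.52 in siCONT with TSA, and −1.49 and −2.07 in depleted cells with TSA. The siCONT mock arrays were the highest, and the depleted mock arrays overlapped the depleted TSA arrays. TSA lowered HES1 to 43.1% in siCONT (change −1.21, SE 0.27, adjusted p = 0.0167, or 0.239 with siCONT as 1 sample). Depletion plus TSA left 38.9% of the siCONT mock level (change −1.36, SE 0.27, adjusted p = 0.00879, or 0.0838). Depletion under mock gave −0.78 (SE 0.27, adjusted p = 0.119), which was −0.48 for siUHRF1-1 and −1.09 for siUHRF1-2, and TSA in depleted cells gave −0.58 (SE 0.27, adjusted p = 0.145). Within each siRNA the TSA change was −0.60 (siUHRF1-1) and −0.55 (siUHRF1-2). The SE does not pair the arrays by siRNA, so it includes the offset between the siRNAs. The fall in siCONT was under 2-fold after normexp correction (−0.70) and missed the threshold without any 1 of the 4 siCONT arrays (adjusted p = 0.0635 to 0.095). The fall with depletion plus TSA was under 2-fold after normexp correction (−0.75) and missed the threshold without siCONT mock array 2 (adjusted p = 0.0545).

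The rest of the pathway was followed through 6 lists with 61 genes, each by its brightest probe. Of these, 21 genes were called in at least 1 of the 6 comparisons. Over all lists the calls numbered 3 of 47 tested genes for depletion under mock (6.38%), 10 of 48 for TSA in siCONT (20.8%), 13 of 53 for TSA in depleted cells (24.5%), 14 of 52 for depletion plus TSA (26.9%), 5 of 51 for depletion under TSA (9.80%) and 4 of 53 for the interaction (7.55%). These shares lie near those of all tested probes given above. With siCONT as 1 sample the counts were 0, 1, 13, 10, 2 and 0 in the same order.

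Receptors and ligands outside the members that were called under TSA were higher, with the exception of DLL1. Among the called genes, only NOTCH4 was above background on all 8 arrays. For TSA against mock, DNER, DLK2, DLL1 and DLL3 were above background in only 1 of the groups compared. They were tested through that group, so the direction of these calls was set in advance. Of 6 genes, 3 rose with TSA in siCONT (of 4 tested), when 18.6% of all tested probes were called. With TSA in depleted cells 3 rose and 1 fell (of 6 tested), against 20.7%. Nothing particular to this list is read from these counts. The atypical ligands DNER and DLK2 were above background on no mock array and on all 4 TSA arrays. DNER was at least 1.71-fold higher with TSA in siCONT (adjusted p = 0.00118, or 0.0633 with siCONT as 1 sample) and at least 4.78-fold higher with TSA in depleted cells (adjusted p = 0.000252, or 0.00319). DLK2 was at least 2.77-fold (adjusted p = 0.00264, or 0.0738) and at least 7.95-fold higher (adjusted p = 0.000324, or 0.0028). Under TSA, depleted cells exceeded siCONT by 1.28 for DNER (SE 0.28, adjusted p = 0.0313, or 0.285) and by 1.44 for DLK2 (SE 0.21, adjusted p = 0.0109, or 0.108). The receptor NOTCH4 rose by 1.24 with TSA in siCONT and by 1.32 with depletion plus TSA (SE 0.26 each, adjusted p = 0.0129 and 0.00814, or 0.205 and 0.0748 with siCONT as 1 sample), and its change with TSA in depleted cells, 0.89, was not called. DLL1 was above background only in depleted cells with mock and was at least 1.88-fold lower with TSA there (adjusted p = 0.00707, or 0.0192), and DLL3 only in depleted cells with TSA, at least 1.65-fold higher than in depleted cells with mock (adjusted p = 0.0312, or 0.00379). For DNER in siCONT, DLL1 and DLL3 the bound is under 2-fold, so these calls rest on fitted values below background.

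In the machinery that makes, cuts and recycles receptors, the 11 genes of receptor processing gave 1 call with TSA in siCONT (9.09%, against 18.6% of all tested probes), 2 with depletion plus TSA (18.2%, against 25.6%) and 1 in the interaction (9.09%, against 4.89%). POFUT1, which adds the O-fucose that Fringe enzymes extend, rose by 1.24 with TSA in siCONT (SE 0.12, adjusted p = 0.00105, or 0.117 with siCONT as 1 sample). NCSTN and APH1B, subunits of the gamma-secretase that cuts the receptors, changed by −1.06 (SE 0.17, adjusted p = 0.00353, or 0.0784) and 1.06 (SE 0.20, adjusted p = 0.0072, or 0.0988) with depletion plus TSA. The 12 genes of endocytosis and turnover gave 1 call among 10 tested with depletion under mock (against 4.12% of all tested probes) and 1 with depletion plus TSA (against 25.6%). MIB2, a ubiquitin ligase for ligands, rose by 1.01 with depletion under mock (SE 0.11, adjusted p = 0.0102, or 0.353), and FBXW7, which marks the intracellular domain for degradation, fell by 1.31 with depletion plus TSA (SE 0.17, adjusted p = 0.00189, or 0.0497). Of 12 genes of the nuclear complex and its corepressors, RBPJ and MAML1 to MAML3 among them, 0 were called by limma in any comparison, when 4.12% to 25.6% of all tested probes were, and 0 by the methods' unadjusted t-test in the 5 comparisons where it was run. At an unadjusted p under 0.05, 8.33% to 45.5% of the list passed, against 28.6% to 55.4% of all tested probes. These counts rest on the brightest probe, and a second CTBP1 probe changed by −1.07 with depletion plus TSA where the brightest gave −0.75. RBPJ changed by −0.86 with TSA in siCONT and by −0.59 with TSA in depleted cells (SE 0.14 each, limma adjusted p = 0.00614 and 0.0199). Both are under 2-fold, and a second RBPJ probe gave −0.35 and −0.30. The median change of the 12 genes lay between −0.16 and 0.18.

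Of 10 genes of the HES and HEY family and other targets 5 could be tested, and they gave no common direction. The list was drawn by family and role, and which of its genes respond to Notch in these cells was not tested. NRARP, a feedback inhibitor that Notch induces, fell by 1.90 with TSA in siCONT and by 1.96 with TSA in depleted cells (SE 0.36 each, adjusted p = 0.00951 and 0.00765, or 0.179 and 0.0351 with siCONT as 1 sample). HES2 rose by 1.68 and 1.92 in the same comparisons (SE 0.20 each, adjusted p = 0.00213 and 0.0011, or 0.0773 and 0.00739). HES6, which opposes HES1, fell by 1.43 with TSA in siCONT (SE 0.15, adjusted p = 0.00148, or 0.11) and was 2.07 higher in depleted than in siCONT cells under TSA (SE 0.15, adjusted p = 0.00201, or 0.0709), where its 3 other probes gave 2.07, 0.29 and 1.41. HES7 rose by 2.65 with TSA in depleted cells (SE 0.39, adjusted p = 0.00355, or 0.0198). HES4, which held the promoter motif, changed by 0.18 with TSA in siCONT and by 0.61 with TSA in depleted cells (SE 0.21 each, limma adjusted p = 0.537 and 0.0644). Neither change was called. HES5, HEY2 and OLFM4 were above background on no array.

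Genes of the secretory lineage, which Notch signalling restrains in the intestine, went both ways, and ATOH1 was above background on no array. With TSA in depleted cells, 2 of 9 rose and 4 fell (66.7% called, against 20.7% of all tested probes). SPDEF, given below for its rise under mock, was among those that fell (change −2.38, SE 0.37). Its depleted mock arrays read −0.77 and 0.29. CHGA, 1 of those that rose, was tested only through the group where it was above background, so its direction was set in advance. TFF3, a goblet cell trefoil peptide, fell by 3.15 (SE 0.18, adjusted p = 0.000189, or 0.00365 with siCONT as 1 sample), while its other probes gave −0.94 and −3.34. REG4 fell by 3.17 (SE 0.58, adjusted p = 0.00723, or 0.0293), while a second probe gave −1.51. SPINK4 rose by 2.90 (SE 0.28, adjusted p = 0.000826, or 0.00771). CHGA, of enteroendocrine cells, was above background only in depleted cells with TSA, at least 8.35-fold higher than in depleted cells with mock (adjusted p = 0.000341, or 0.00271). With depletion under mock, the goblet cell mucin MUC2 rose by 1.99 (SE 0.23, adjusted p = 0.0112, or 0.179) and its regulator SPDEF by 1.66 (SE 0.37, adjusted p = 0.0473, or 0.442), while a second MUC2 probe gave −0.14.

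**Figure D4:**
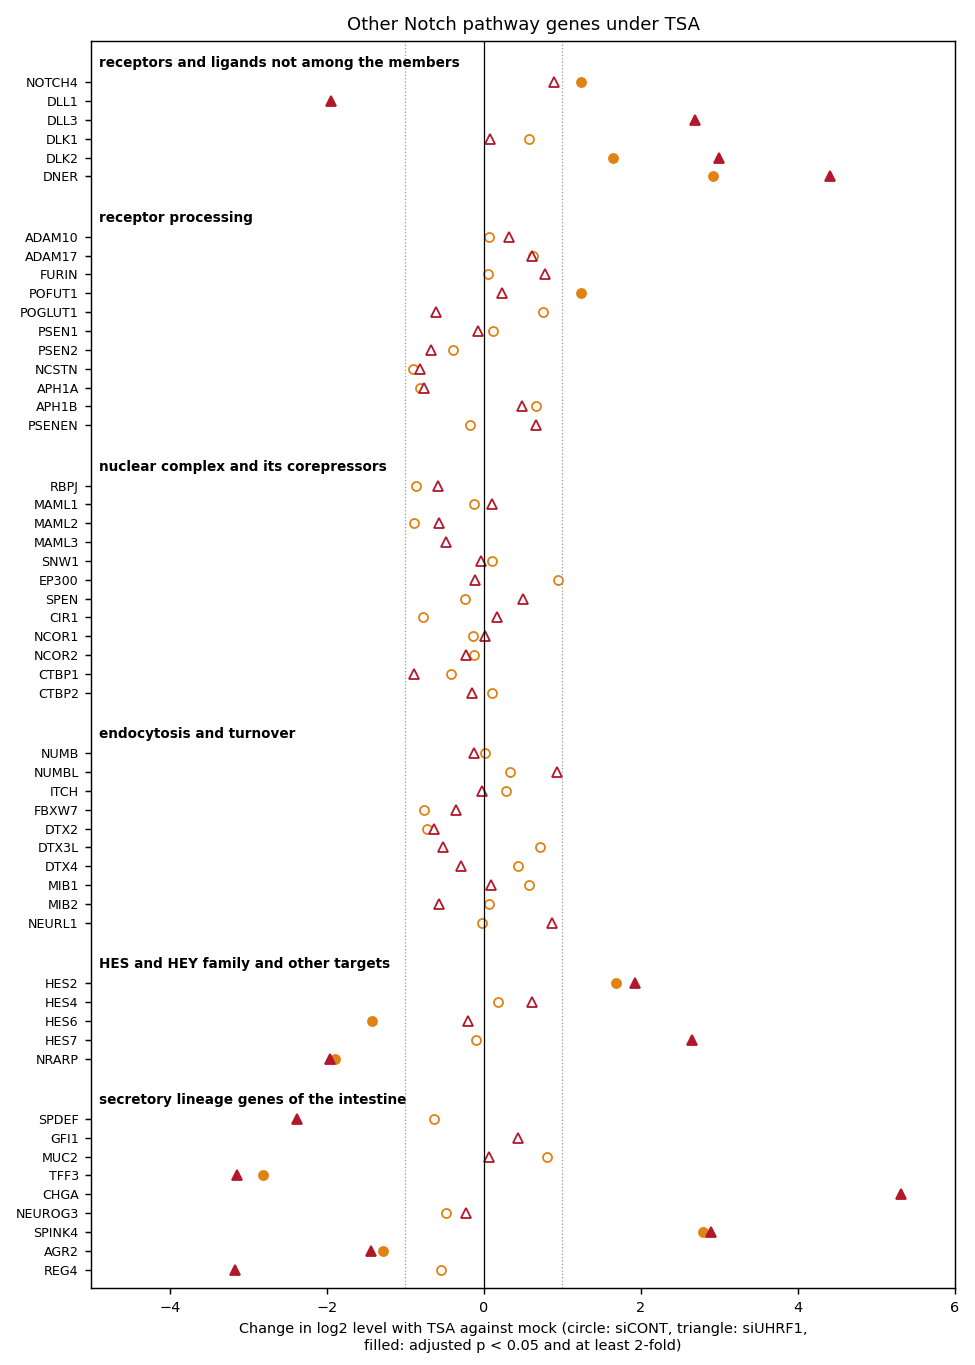
Change in log2 level with TSA against mock for the tested genes of the 6 pathway lists, in siCONT (circles) and in UHRF1-depleted cells (triangles); filled points passed adjusted p under 0.05 and 2-fold in limma, and dotted lines mark 2-fold. HES2 and SPINK4 are filled to the right in both, and NRARP, TFF3 and AGR2 to the left in both. The nuclear complex has no filled point. DNER and DLK2 are also filled to the right in both, but they were tested only through the TSA groups, so this direction was set in advance. Their points are fitted values. The bounds in siCONT and in depleted cells are 1.71 and 4.78-fold for DNER and 2.77 and 7.95-fold for DLK2. The direction of the filled DLL1, DLL3 and CHGA triangles was likewise set in advance.

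The genes whose pattern over the 8 arrays was most like that of LFNG A_23_P8452 were PHGR1, GPA33, LGALS4, NOX1 and PIGZ, with a root mean square difference of the centred level of 0.476, 0.502, 0.672, 0.719 and 0.719 log2 units among 18711 probes compared. PHGR1 had group means of 4.73 in siCONT with mock, 6.85 in depleted cells with mock, 0.97 in siCONT with TSA and 2.03 in depleted cells with TSA. GPA33, a surface glycoprotein of intestinal epithelium, had 2.98, 3.59, −2.51 and −1.18 in the same order. LGALS4, a galectin of the gut, had 1.96, 5.07, −1.61 and 0.00. All 5 were highest in depleted cells with mock, as LFNG was, which follows from their being picked for likeness to it. The genes nearest to HES1 were ITPRIP, USP27X, HOXB3, MITD1 and P2RX4, at 0.127 to 0.158 log2 units. The 8 points of each pattern share arrays and siRNAs, so the likeness is a description.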

How the data were processed

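Total RNA of DLD1 cells was hybridised to 8 single-colour (Cy3) arrays of the Agilent SurePrint G3 Human GE v2 design, 2 per group, all on 1 slide in 1 scan. Per the file headers, the authors extracted spot intensities with Feature Extraction 10.7.3.1, which subtracted background and wrote a processed intensity on a linear scale, unscaled between arrays; the design refers to hg19. The deposited series table holds the same intensity per probe. GeneSpring GX is named in the study's methods without its normalization. Neither the labels nor the methods say whether the siCONT arrays came from separate cultures, so p-values measure the spread between these samples, which may be technical.

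Outlier spots were left out, and spots of 1 probe were averaged (902 probes had 10 spots). The level was log2 intensity minus the log2 75th percentile of the array (137 to 189 intensity units). Levels entered limma 3.58.1 (R 4.3.3, lmFit and eBayes) with 4 group means with 4 residual degrees of freedom, two-sided, with Benjamini-Hochberg adjustment over all probes tested. A probe was tested where 1 of the groups compared had it well above background on both arrays, and called at an adjusted p under 0.05 and at least 2-fold. The fit was tested on simulated data. The number of arrays, 2 a group, sets the precision. For a probe above background on no array of a group, "at least N-fold" sets the brighter group's mean against, per array, the higher of the lowest signal above background and the probe's own.

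The text names every probe of every member, of each list at most the 4 called genes with the largest change in a comparison, and the 5 genes with the most similar pattern. ATOH1, RBPJ, the MAML genes and target genes with a motif match or no signal were named besides. Members and lists were chosen with earlier results of these data known. Sequences came from the files or RefSeq (GRCh38.p14). Alternatives were other scalings, background correction, filters, siCONT averaging, replicate blocks, the methods' t-test, the series table and leaving out each array. Figures were drawn with matplotlib 3.10.9.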

Additional observations from a re-analysis of the deposited data

Results flagged for a closer look

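The interaction of UHRF1 depletion and TSA, in limma over all probes, passed the call for 4 pathway genes among the 53 tested (7.55%, against 4.89% of all tested probes). For POFUT1 the interaction was −1.01 (SE 0.16, adjusted p = 0.0306), for HES6 1.24 (SE 0.21, adjusted p = 0.0339), for HES7 2.75 (SE 0.55, adjusted p = 0.0456) and for CHGA 5.19 (SE 0.54, adjusted p = 0.0144). With siCONT counted as 1 sample the adjusted p was 0.543, 0.508, 0.457 and 0.201, and none passed. A replicate block gave 1 call, a block within each siRNA arm 0, and leaving out 1 array gave 0 to 7. POFUT1 had group means of −1.96 in siCONT with mock, −1.51 in depleted cells with mock, −0.73 in siCONT with TSA and −1.27 in depleted cells with TSA. HES6 had 3.62, 4.45, 2.19 and 4.25 in the same order, and its 3 other probes gave interactions of 1.09, 0.44 and 0.75. HES7 had −0.82, −2.39, −0.92 and 0.25, and its siRNAs differed under mock (−1.78 and −3.01). CHGA was above background only in depleted cells with TSA, so its interaction is a fitted value and not a bound. It was tested only through that group, so the sign of its interaction was set in advance.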

How the results depend on the processing

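Counts of called member probes other than LFNG were 0 for depletion under mock, 3 for TSA in siCONT, 4 for depletion plus TSA, 1 for depletion under TSA, 2 for TSA in depleted cells and 0 for the interaction, and those of list genes were 3, 10, 14, 5, 13 and 4. Counting siCONT as 1 sample gave 0, 0, 1, 0, 2 and 0 members and 0, 1, 10, 2, 13 and 0 list genes. Leaving out 1 array gave 0 to 1, 1 to 3, 3 to 4, 0 to 2, 2 to 3 and 0 to 1 members and 0 to 6, 8 to 10, 12 to 15, 2 to 7, 13 to 15 and 0 to 7 list genes. Normexp correction gave 2 members with depletion plus TSA, and 0, 5 and 2 list genes for depletion under mock, TSA in siCONT and depletion under TSA. Median scaling gave 1 list gene for depletion under mock, and 0 members for depletion under TSA and 4 for TSA in depleted cells. The methods' t-test without adjustment gave 1 member for TSA in depleted cells. With adjustment it gave 0 members for depletion plus TSA, depletion under TSA and TSA in depleted cells, and 0, 7, 0 and 0 list genes for depletion under mock, depletion plus TSA, depletion under TSA and TSA in depleted cells. Without a filter on dim probes 3 list genes were called for depletion under TSA and 1 for the interaction, and with probes above background on all arrays 2 for depletion under TSA and 8 for TSA in depleted cells, since fewer genes were tested. Fitting only the arrays of the groups compared gave 0 list genes for depletion under mock. The median over a gene's probes gave 0, 3 and 2 list genes for depletion under mock, depletion under TSA and the interaction. Beyond these, the cause of each shift was not tested.

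With the replicate number as a block, 1 list gene was called in the interaction, and with a block within each siRNA arm 0, while member counts stayed within 1.5 times. The number does not pair the samples, since correlations of deviations between groups lay between −0.0563 and 0.0743 except for the depleted groups, which share siRNAs (0.337). The main fit did not pair the depleted arrays by siRNA. The block within an arm could not be fitted for depletion effects or depletion plus TSA, nor the t-test or the restricted fit for the interaction.

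Median scaling moved the median change of all probes with depletion plus TSA from −0.14 to −0.54 and the share of calls that rose from 56.8% to 31.6% (depletion under TSA 65.2% to 29.1%, TSA in depleted cells 56.5% to 30.1%, interaction 57.8% to 24.2%). Scaling on probes above background on all arrays raised that share to 72.0% with depletion plus TSA, 66.2% with TSA in siCONT (from 55.8%), 75.5% and 68.3% with depletion under TSA and TSA in depleted cells, and normexp lowered depletion under TSA to 54.8%.

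Signs that turned belonged to changes that were not called. Median scaling gave −0.24 for NOTCH1 A_33_P3370424 and −0.17 for RFNG with depletion under TSA, −0.29 for NOTCH2 A_23_P200792 with depletion plus TSA and −0.20 for MFNG with TSA in depleted cells. The interaction of NOTCH2 A_23_P200792 was −0.09 with quantile normalization, −0.31 with median scaling and −0.08 with normexp. Normexp gave −0.03 for MFNG with TSA in siCONT and 0.14 for its interaction. Scaling on probes above background on all arrays gave 0.04 for NOTCH2 A_33_P3258824 with TSA in siCONT and 0.07 for RFNG with depletion plus TSA. Without 1 array, ranges crossed 0 for the interaction of NOTCH2 A_23_P200792 (−0.05 to 0.12), LFNG A_23_P8452 (−0.77 to 0.13) and MFNG (−0.39 to 0.14), for depletion under mock of JAG1 (−0.21 to 0.47) and JAG2 (−0.08 to 0.30), for depletion under TSA of NOTCH2 A_33_P3258824 (−0.44 to 0.09), LFNG A_23_P434518 (−0.51 to 0.17) and HES1 (−0.43 to 0.14), for TSA in depleted cells of MFNG (−0.07 to 0.46), and reached 0.00 from −0.53 for NOTCH2 A_33_P3258824 with depletion plus TSA.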
